A study of Homo sapiens with 4 samples.

Results

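The genes described here encode the pore-forming and auxiliary subunits of voltage-gated sodium channels (SCN), voltage-gated calcium channels (CACN), potassium channels (KCN) and hyperpolarization-activated cation channels (HCN). They were chosen by gene symbol, with earlier results of these data known. Of the 24014 genes in the table of counts, 98 carried such a symbol. RNA-seq had been performed on the human neuroblastoma line SK-N-SH after infection with a recombinant lentivirus carrying the long non-coding RNA AP1AR-DT (also called AC109347.1, AP1AR-DT_OE, 2 libraries) or with a lentiviral vector that had no insert (control, 2 libraries). The lentivirus and the wild-type SK-N-SH background were common to both groups, and nothing in the labels says that the libraries of a group came from separate cultures, so a p-value here measures only the spread between these libraries. For AP1AR-DT_OE replicate 2 the genotype and treatment fields give another version suffix of the RNA than the title, and the title was followed. The comparison asks whether raising AP1AR-DT was accompanied by a different set of channel transcripts in these cells.

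Voltage-gated channels open and close with membrane potential. Sodium and calcium channels carry inward current, calcium that enters can trigger secretion and signalling, and most potassium channels repolarize the cell or hold its resting potential. HCN channels open on hyperpolarization and pass a mixed cation current known for pacemaking in heart and brain. The pore is made by alpha subunits, whereas auxiliary subunits set surface level and gating. Neuroblastoma cells derive from the sympathoadrenal lineage, whose normal descendants are excitable.

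The libraries held between 21988065 and 26184599 counts, of which the channel genes took from 0.113% to 0.130%. AP1AR-DT itself was at 3 and 18 raw counts in control and at 680 and 1065 raw counts in AP1AR-DT_OE, so it was higher in the libraries labelled for it. Of 12 adrenergic markers, 11 were in the table and 10 averaged at least 50 normalized read counts, among them HAND2, GATA3 and DBH, whereas TH had no row. All 12 mesenchymal markers passed the same mark, so the cultures carried transcripts of both neuroblastoma cell states. None of these markers was called by DESeq2, and 1, the mesenchymal factor PRRX1, had an unadjusted p under 0.05, with normalized read counts of 2770 and 11358 in control and 1241 and 2246 in AP1AR-DT_OE. Of the marker lists for other cell types, 1 of 6 Schwann or glial, 0 of 6 muscle, 2 of 5 epithelial and 1 of 5 blood genes had a mean of at least 50, and none was called. In RNA from a whole culture, fewer cells of a type and less RNA per cell cannot be told apart.

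Stretches of coding sequence around the selectivity filter are shown for 6 well-expressed potassium or cation channel subunits. They give the common signature of these pores, and the first 3 are richer in G and C than the last 3. GC content went with the differences between libraries described below, with KCNMA1 as an exception. Each stretch runs 5′ to 3′ on the coding strand for 81 bases of the GENCODE transcript. The capitals mark the 3 codons for glycine, tyrosine or phenylalanine, and glycine of the filter. In GRCh37 they lie at chr19:607994-608074 on the plus strand (HCN2), chr19:44276173-44276253 on the minus strand (KCNN4), chr7:150648561-150648641 on the minus strand (KCNH2) and chr10:78869958-78870038 on the minus strand (KCNMA1), each within 1 coding exon. The stretches of KCNK2 and KCNQ5 join 2 exons, and with the intron they span chr1:215298057-215342585 and chr6:73787593-73815042, both on the plus strand.
HCN2: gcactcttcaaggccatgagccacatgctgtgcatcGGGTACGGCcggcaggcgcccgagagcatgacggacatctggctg
KCNN4: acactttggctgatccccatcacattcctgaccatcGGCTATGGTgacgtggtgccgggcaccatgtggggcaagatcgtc
KCNH2: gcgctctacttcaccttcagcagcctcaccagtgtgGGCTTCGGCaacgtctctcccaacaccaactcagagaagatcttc
KCNMA1: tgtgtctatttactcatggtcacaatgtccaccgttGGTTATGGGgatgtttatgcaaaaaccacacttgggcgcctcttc
KCNK2: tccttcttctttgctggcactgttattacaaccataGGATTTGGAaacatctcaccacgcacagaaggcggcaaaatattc
KCNQ5: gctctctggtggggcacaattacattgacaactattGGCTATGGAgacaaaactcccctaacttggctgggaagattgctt

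The glycines, and the tyrosine or phenylalanine between them, are written with different codons in different genes. GC content was 64.2% in the HCN2 stretch, 58.0% in KCNN4 and 55.6% in KCNH2, against 45.7% in KCNMA1, 43.2% in KCNK2 and 46.9% in KCNQ5. Over the whole coding sequence, the last base of the codon was G or C in 94.4% of HCN2 codons and in 52.3% of KCNK2 codons. A search of the translated coding sequences for a filter-like run of 5 residues (threonine, serine or cysteine, then valine, isoleucine, leucine or threonine, glycine, tyrosine, phenylalanine or leucine, and glycine) found at least 1 in all 57 pore-forming potassium and HCN members and at least 2 in 9 of the 11 tandem-pore KCNK members. It also matched 4 of the 40 other members with a usable coding sequence, and a match is a run of letters, not evidence of a pore.

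AP1AR-DT_OE was accompanied by no called change in any channel gene. At an adjusted p under 0.05, DESeq2 called 0 of the 98, where 0.137% of all 24014 genes were called, and the lowest adjusted p among the channel genes was 1.00. At an unadjusted p under 0.05 the count was also 0 of 98, against 0.816% of all genes. The edgeR quasi-likelihood test gave 0 of the 70 channel genes it could test at either mark, where 0.658% of all genes it tested had an unadjusted p under 0.05. These counts describe a comparison of 2 libraries with 2, and the interval of each gene is what limits the size of a difference.

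Of the 98 genes, 45 were detected, meaning that normalized read counts averaged at least 50 over the 4 libraries, where a normalized read count is the count divided by the DESeq2 size factor. A further 26 stayed at or under 12 counts in every library. That floor is the limit that 3 unseen read pairs allow, since a pair was worth about 4 counts in this table, and it covers counting error only. The other 27 lay between. Gene positions below are those the table gives, which are GRCh38 positions. Whether counting used the strand is not stated, and the exons of CACNA2D2, KCNH3, KCNQ1, KCNAB1, KCNAB2, KCNMA1, KCNJ14 and HCN2 overlap a gene on the opposite strand, so their counts are uncertain. Over the 45 detected genes the fitted Log2FC (AP1AR-DT_OE over control) ran from -0.80 (CACNG7) to 0.52 (CACNA1B), with a median of -0.07 against -0.02 for all 13298 genes at that level. Values were negative for 29 of the 45 (64.4%), where 54.9% of all detected genes were negative. The standard error was 0.46 to 0.81, and the lowest unadjusted p was 0.195, for CACNG7. The 95% interval lay within a 4-fold change in both directions for 42 of the 45, and CACNG7, KCNC1 and KCNH4 were the exceptions. It lay within a 2-fold change for 1, KCNN4.

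**Figure D1:**
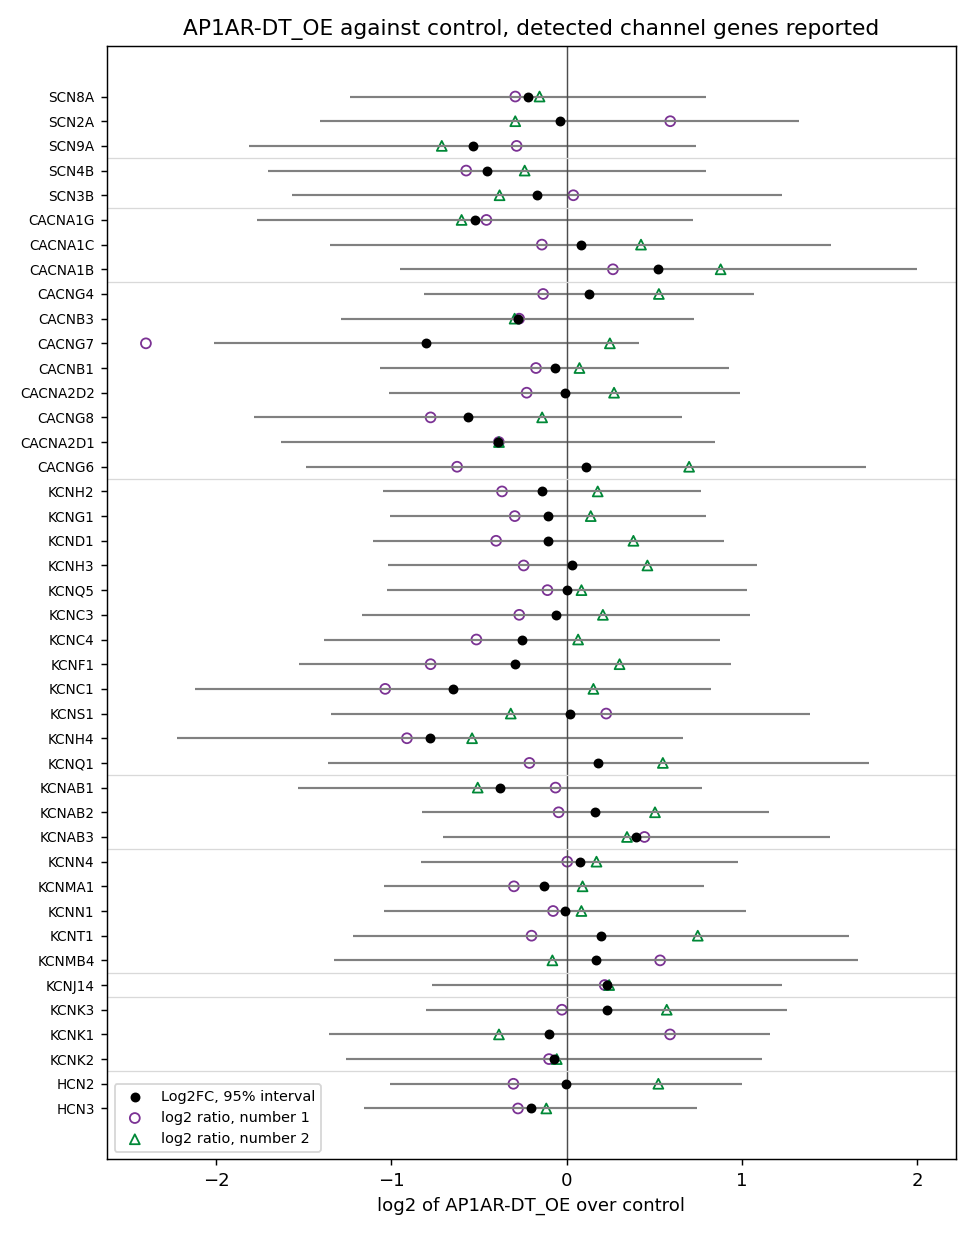
Change of the detected channel genes reported here with AP1AR-DT overexpression. The x axis is the log2 of AP1AR-DT_OE over control, filled points are the fitted Log2FC with its 95% interval (lines), and open circles and triangles are the log2 ratios of the libraries numbered 1 and 2. Every interval crosses 0, fitted values run from -0.80 to 0.52, and for many genes, KCND1 and HCN2 among them, the ratios of the 2 numbers lie on opposite sides of 0.

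Levels were set against each other per kilobase of each gene's longest transcript. On this scale the leading channel transcript was CACNG4, with 1136 normalized counts per kilobase on average, followed by HCN2 with 971, KCNN4 with 717, KCNH2 with 715 and CACNB3 with 408. KCNAB1 (356), KCNG1 (349), CACNG7 (283), KCND1 (242) and KCNAB2 (177) completed the first 10. Among neighbours in these first 10, the ranges of mean ± SD met in both groups, except that KCNH2 (680 ± 70.7) lay above CACNB3 (368 ± 156) in AP1AR-DT_OE (SD, n = 2). The level of HCN2 per kilobase was 972 ± 551 in control and 969.6 ± 189 with the insert (SD, n = 2). The control range takes in the control means of CACNG4, KCNN4 and KCNH2. With the insert the means of these genes, 1186, 736 and 680, lay outside the range of HCN2. Of these 10, CACNG4, CACNB3, CACNG7, KCNAB1 and KCNAB2 encode auxiliary subunits without a pore of their own. By contrast, the best-expressed sodium channel pore, SCN8A, reached 20.7 per kilobase and the best-expressed calcium channel pore, CACNA1G, reached 12.2.

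**Figure D2:**
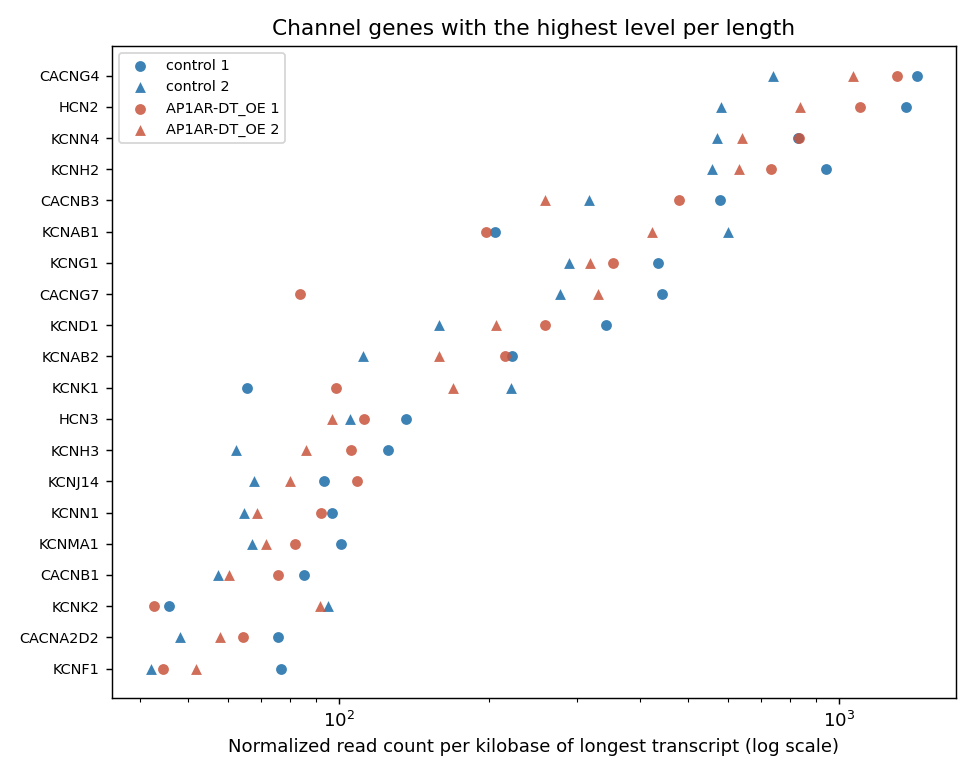
The channel genes reported here with the highest level per length. The x axis is the normalized read count per kilobase of longest transcript on a log scale, circles are libraries numbered 1 and triangles libraries numbered 2, in blue for control and red for AP1AR-DT_OE. CACNG4 leads with a mean of 1136, and for CACNG4, HCN2 and KCNAB1 both circles lie on the same side of both triangles.

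Of the sodium channel genes, 4 of 7 pores and 3 of 4 beta subunits were detected, and none was called. SCN8A (ENSG00000196876, chromosome 12, 51590266 to 51812864), a neuronal pore concentrated at the axon initial segment, had 253 and 263 normalized counts in control and 206 and 236 in AP1AR-DT_OE. Both AP1AR-DT_OE libraries lay below both controls, by a Log2FC of -0.22 with a standard error of 0.52. SCN9A (ENSG00000169432, chromosome 2, 166195185 to 166376001), the pore known from sympathetic and pain-sensing neurons, had 91.1 and 139 in control and 74.6 and 84.4 in AP1AR-DT_OE. It too did not overlap between groups, and its Log2FC was -0.53 with a standard error of 0.65. SCN2A (ENSG00000136531, chromosome 2, 165194993 to 165392310), another axonal pore of central neurons, had 71.8 and 242 in control and 109 and 198 in AP1AR-DT_OE. Its libraries split by replicate number, with both numbered 2 above both numbered 1, and the Log2FC was -0.04.

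The beta subunits adjust gating and take part in cell adhesion. SCN4B (ENSG00000177098, chromosome 11, 118133377 to 118152888) had 229 and 110.3 in control and 154 and 93.3 in AP1AR-DT_OE. SCN3B (ENSG00000166257, chromosome 11, 123629187 to 123655244) had 68.3 and 74.1 in control and 70.2 and 56.6 in AP1AR-DT_OE. Both overlapped between the groups, and SCN4B was lower in the library numbered 2 within each group. The skeletal muscle pore SCN4A, SCN7A and SCN2B stayed at or under the floor in every library.

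Of the calcium channel pores, 3 of 6 were detected, each at a low level per length. CACNA1G (ENSG00000006283, chromosome 17, 50560715 to 50627474), a low-voltage-activated T-type pore, had 139 and 109 normalized counts in control and 101 and 71.5 in AP1AR-DT_OE. Both AP1AR-DT_OE values lay below both controls (Log2FC = -0.52, standard error 0.64). CACNA1C (ENSG00000151067, chromosome 12, 1970772 to 2697950), an L-type pore of heart and neurons, had 95.7 and 47.8 in control and 86.7 and 64.5 in AP1AR-DT_OE, within the control range. CACNA1B (ENSG00000148408, chromosome 9, 137877782 to 138124624), the N-type pore of sympathetic nerve endings, had 68.3 and 36.3 in control and 82.3 and 67.5 in AP1AR-DT_OE. Its Log2FC of 0.52 was the highest of the detected channel genes, but the groups overlapped and the interval began at -0.95. CACNA1A, the P/Q-type pore, had raw counts of 21 and 12 in control and 3 and 3 in AP1AR-DT_OE, so that both AP1AR-DT_OE libraries and 1 control were at or under the floor.

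The auxiliary calcium channel genes reached higher levels per length, and 8 of 13 were detected. CACNG4 (ENSG00000075461, chromosome 17, 66964707 to 67033398), CACNG7 and CACNG8 are better known as regulators of AMPA-type glutamate receptors than as calcium channel subunits. CACNG4 had 5138 and 2650.5 normalized counts in control and 4682 and 3817 in AP1AR-DT_OE, a Log2FC of 0.13 with a standard error of 0.48. CACNB3 (ENSG00000167535, chromosome 12, 48813794 to 48828941), a cytoplasmic beta subunit that carries the pore to the membrane, had 2327 and 1277 in control and 1928 and 1039 in AP1AR-DT_OE. In both genes the libraries numbered 2 were the lower ones. The alpha-2-delta genes, whose products bind gabapentin, overlapped as well. CACNA2D2 had 431 and 274 in control against 367 and 331, and CACNA2D1 had 115 and 201 against 87.8 and 154.

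CACNG7 (ENSG00000105605, chromosome 19, 53909278 to 53943950) gave the lowest Log2FC of the detected channel genes, and 1 library set it. It had 1219.8 and 764 normalized counts in control, 230.3 in AP1AR-DT_OE replicate 1 and 907 in AP1AR-DT_OE replicate 2. The second AP1AR-DT_OE library thus lay between the controls and the first lay below all others, giving a Log2FC of -0.80 with a standard error of 0.62. Without AP1AR-DT_OE replicate 1 the Log2FC was -0.13, and without AP1AR-DT_OE replicate 2 it was -2.12, with an unadjusted p of 0.00258 and an adjusted p of 0.550 in DESeq2. In that fit 1.1% of all genes had an unadjusted p under 0.05.

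**Figure D3:**
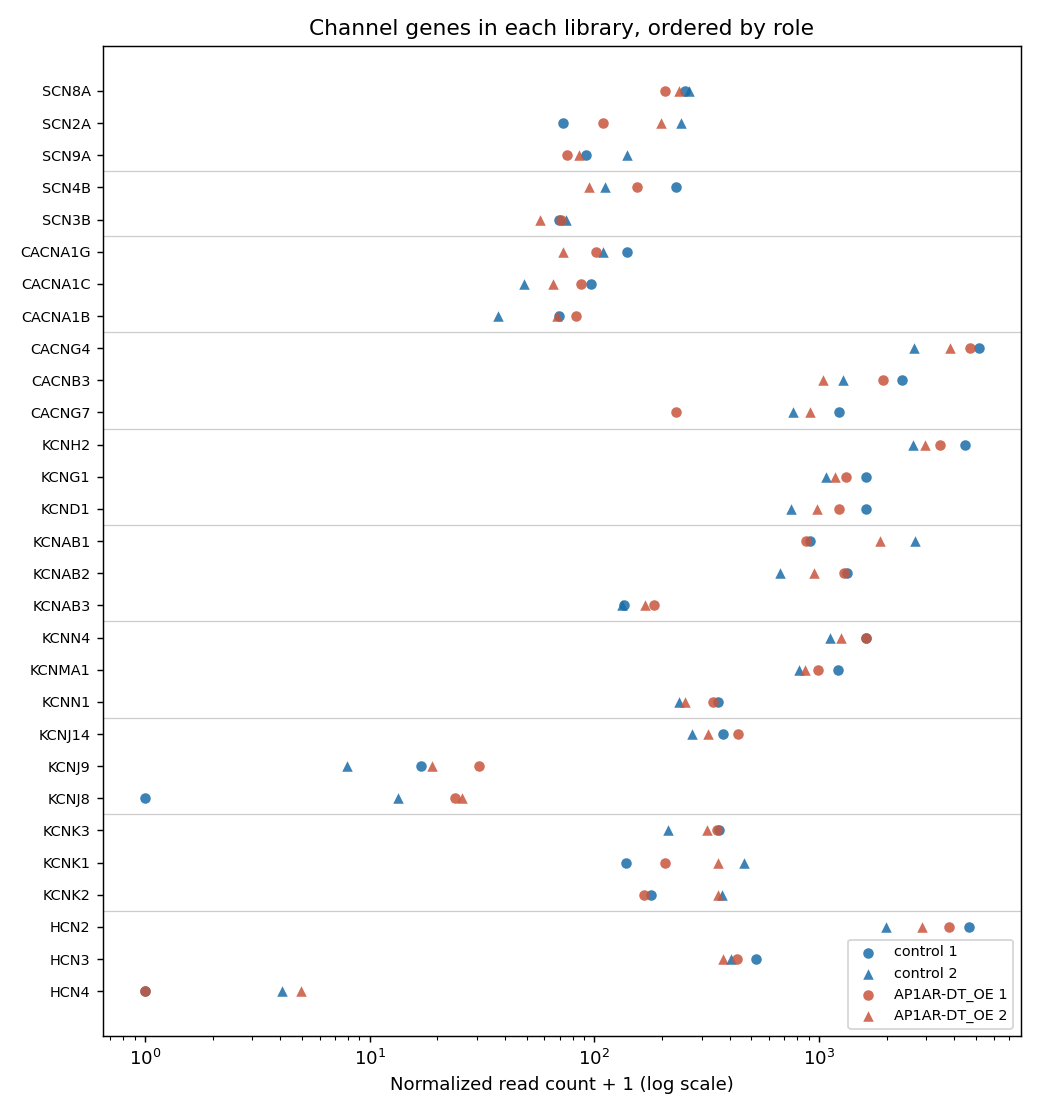
Named channel genes in each library. The x axis is the normalized read count plus 1 on a log scale, circles are libraries numbered 1 and triangles libraries numbered 2, in blue for control and red for AP1AR-DT_OE, and grey lines part the functional groups. CACNG7 in AP1AR-DT_OE replicate 1 (230.3) stands apart from its other 3 libraries, while KCNAB1, KCNK1, KCNK2 and SCN2A are higher in both libraries numbered 2.

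Voltage-gated potassium pores made up the largest group, with 13 of 26 detected and none called. KCNH2 (ENSG00000055118, chromosome 7, 150944961 to 150978321) encodes the hERG channel, which repolarizes heart muscle and is a known current of neuroblastoma cells, and its filter is among those printed above. It had 4449 and 2629.7 normalized counts in control and 3445 and 2974 in AP1AR-DT_OE, and both AP1AR-DT_OE values lay between the controls. KCNG1 (ENSG00000026559, chromosome 20, 51003656 to 51023107) is a silent subunit that forms channels only together with pore subunits of another potassium channel family. It had 1617 and 1075 in control and 1317 and 1182 in AP1AR-DT_OE. KCND1 (ENSG00000102057, chromosome X, 48961378 to 48971844), a pore for transient A-type current, had 1614 and 748 in control and 1221 and 975 in AP1AR-DT_OE. The Log2FC of KCNH2, KCNG1 and KCND1 lay between -0.14 and -0.10, with standard errors of 0.46 to 0.51.

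The M-current is a slow potassium current that damps firing in sympathetic neurons, and KCNQ5 is a pore that carries it. KCNQ5 had 241 and 299 in control and 224 and 317 in AP1AR-DT_OE. The group means were 270.0 and 270.2, and the libraries numbered 2 were the higher ones. KCNQ3, another M-current pore, was under the mark for detection, with raw counts of 32 and 46 in control and 17 and 11 in AP1AR-DT_OE. Its groups did not overlap, and the Log2FC was -1.28 with a standard error of 1.04 (unadjusted p = 0.216 in DESeq2). KCNH4 and KCNC1 had the most negative values of the detected pores, at -0.78 and -0.65, and in each the first control alone was high. KCNH4 had 118 and 62.5 in control against 62.5 and 42.7, and KCNC1 had 163 and 51.7 against 79.0 and 57.6.

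Among the auxiliary potassium subunits only the 3 KCNAB genes were detected. Their products are cytoplasmic beta subunits of KCNA channels, and none of the KCNA pores in the table (KCNA1, KCNA3 and KCNA7) was detected. KCNAB1 (ENSG00000169282, chromosome 3, 156037701 to 156539138) had 912 and 2665 normalized counts in control and 873 and 1875 in AP1AR-DT_OE, following the replicate number. KCNAB2 (ENSG00000069424, chromosome 1, 5990927 to 6101193) ran the other way, with 1329 and 669 in control and 1288 and 949 in AP1AR-DT_OE. KCNAB3 (ENSG00000170049, chromosome 17, 7921859 to 7929856) had 134 and 132 in control and 183 and 168 in AP1AR-DT_OE. It was the only detected channel gene with both AP1AR-DT_OE libraries above both controls, and its Log2FC was 0.40 with a standard error of 0.56 (unadjusted p = 0.480 in DESeq2).

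Of the potassium channels opened by calcium or sodium, 5 of 8 genes were detected. KCNN4 (ENSG00000104783, chromosome 19, 43766533 to 43781257), the intermediate-conductance channel first known from red blood cells, had 1621 and 1114 normalized counts in control and 1625 and 1254 in AP1AR-DT_OE. Its Log2FC of 0.07 had the interval, -0.83 to 0.98, that lay within a 2-fold change. KCNMA1 (ENSG00000156113, chromosome 10, 76869601 to 77638369), the large-conductance pore, had 1218 and 811 in control and 988 and 864 in AP1AR-DT_OE. KCNN1 (ENSG00000105642, chromosome 19, 17951293 to 18000085), a small-conductance pore, had 355 and 237 in control and 337 and 251 in AP1AR-DT_OE. In all 3 genes the groups overlapped, and the libraries numbered 2 were the lower ones. The neuronal beta subunit of the large-conductance channel, KCNMB4, had 39.9 and 72.5 in control against 58.1 and 68.5.

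Inward rectifiers, which pass potassium most easily near rest, had the smallest share of detected genes of the functional groups, with 1 of 11 detected and 6 of 11 at or under the floor throughout. KCNJ14 (ENSG00000182324, chromosome 19, 48455574 to 48466980) had 374 and 270.0 normalized counts in control and 434 and 319.6 in AP1AR-DT_OE, a Log2FC of 0.23 with a standard error of 0.51. It has exon sequence in common with GRWD1 on the same strand, so its counts are uncertain. KCNJ9, a subunit of G-protein-gated channels (ENSG00000162728, chromosome 1, 160081538 to 160090563), had raw counts of 14 and 9 in control and 27 and 18 in AP1AR-DT_OE. KCNJ8 (ENSG00000121361, chromosome 12, 21764955 to 21775600), a pore of ATP-sensitive channels, had raw counts of 0 and 16 in control and 21 and 25 in AP1AR-DT_OE. In both, the groups did not overlap, but each held a control at or under the floor, and the unadjusted p in DESeq2 was 0.385 for KCNJ9 and 0.214 for KCNJ8. Without control replicate 2 the unadjusted p of KCNJ8 was 0.0116 in DESeq2, in a fit where 2.22% of all genes had an unadjusted p under 0.05, and the lowest adjusted p of a channel gene was 0.999.

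Tandem-pore channels carry background potassium current. KCNK3 (ENSG00000171303, chromosome 2, 26692690 to 26733420), an acid-sensitive member, had 358 and 212 normalized counts in control and 351 and 316 in AP1AR-DT_OE. KCNK1 (ENSG00000135750, chromosome 1, 233614106 to 233672514), a weakly conducting member, had 137 and 462 in control and 206 and 353 in AP1AR-DT_OE. KCNK2 (ENSG00000082482, chromosome 1, 215005775 to 215237090), a mechanically and lipid-gated member, had 178 and 369 in control and 166 and 355 in AP1AR-DT_OE. The libraries of KCNK1 and KCNK2 sorted by replicate number, and for KCNK2 the ratios of the numbers were close, with a log2 of 2 over 1 of 1.05 in control and 1.10 in AP1AR-DT_OE.

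HCN2 (ENSG00000099822, chromosome 19, 589881 to 617159) was the most abundant of the pacemaker channel genes and the channel pore with the highest level per length. It had 4656 and 1989 normalized counts in control and 3772 and 2859.5 in AP1AR-DT_OE, with group means of 3323 and 3316 and a Log2FC interval of -1.01 to 1.00. HCN3 (ENSG00000143630, chromosome 1, 155277463 to 155289848) had 523 and 403 in control and 431 and 372 in AP1AR-DT_OE, and the groups overlapped. HCN4 (ENSG00000138622, chromosome 15, 73319859 to 73368958), the main form of the cardiac pacemaker, had at most 4 counts in any library.

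Whether the groups overlapped was counted over all members. Among the detected genes, both AP1AR-DT_OE libraries lay outside the control range for 4 of 45 (8.89%), SCN8A, SCN9A and CACNA1G below and KCNAB3 above, where 9.45% of all 13298 detected genes did so (5.11% above and 4.35% below). With a correction for GC content the count was 14 of 45, 5 above and 9 below. Of all 13255 detected genes 18.7% lay outside (9.71% above and 8.96% below), a smaller share than that of the members. Without the correction, 13.7% of all genes, detected or not, lay outside the control range (6.59% above and 7.14% below). Of all 98 members 21 (21.4%) did so, 8 above and 13 below. Those of them that were not detected include values set by counts at or under the floor, and 3, KCNA3, KCNMB3 and KCNK9, had 0 counts in both AP1AR-DT_OE libraries and at most 12 in either control, so no fold is given. KCNA3, a pore of lymphocytes, had the lowest unadjusted p of all members in DESeq2 (0.0511). With a correction for GC content its unadjusted p was 0.0367, where 1.1% of all genes had one under 0.05.

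Within each group, the values of the channel genes differed by replicate number in step with the GC content of the transcript. Of the 34 detected members with a GC content of 50% or more in the longest transcript, all 34 were lower in control 2 than in control 1, and 30 were lower in both libraries numbered 2. Of the 11 with a GC content under 50%, 10 were higher in control 2 than in control 1 and 9 were higher in both libraries numbered 2. Among all detected genes, 87.8% of the 6233 in the upper GC class were lower in control 2, and 80.7% of the 7051 in the lower class were higher. KCNMA1, at 43.9% GC, was the member of the lower class that went the other way in both groups.

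The medians give the size of this split. In the upper GC class the median log2 of control 2 over control 1 was -0.75 and that of AP1AR-DT_OE 2 over AP1AR-DT_OE 1 was -0.31, and in the lower class they were 0.80 and 0.50. Across the 45 members, Spearman's rho of GC content with the log2 ratio was -0.57 between the controls and -0.26 between the AP1AR-DT_OE libraries. With AP1AR-DT_OE over control as the ratio, rho was -0.36 in the libraries numbered 1 and 0.56 in those numbered 2. These are descriptions over genes that share 4 libraries, and a control library enters more than 1 of the ratios. In the genes whose filters are printed above, the log2 of control 2 over control 1 was -1.23 for HCN2, at 70.8% GC. It was -0.54 for KCNN4 and -0.76 for KCNH2. In the lower class it was 1.05 for KCNK2, at 45.5% GC, 0.30 for KCNQ5 and -0.59 for KCNMA1.

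**Figure D4:**
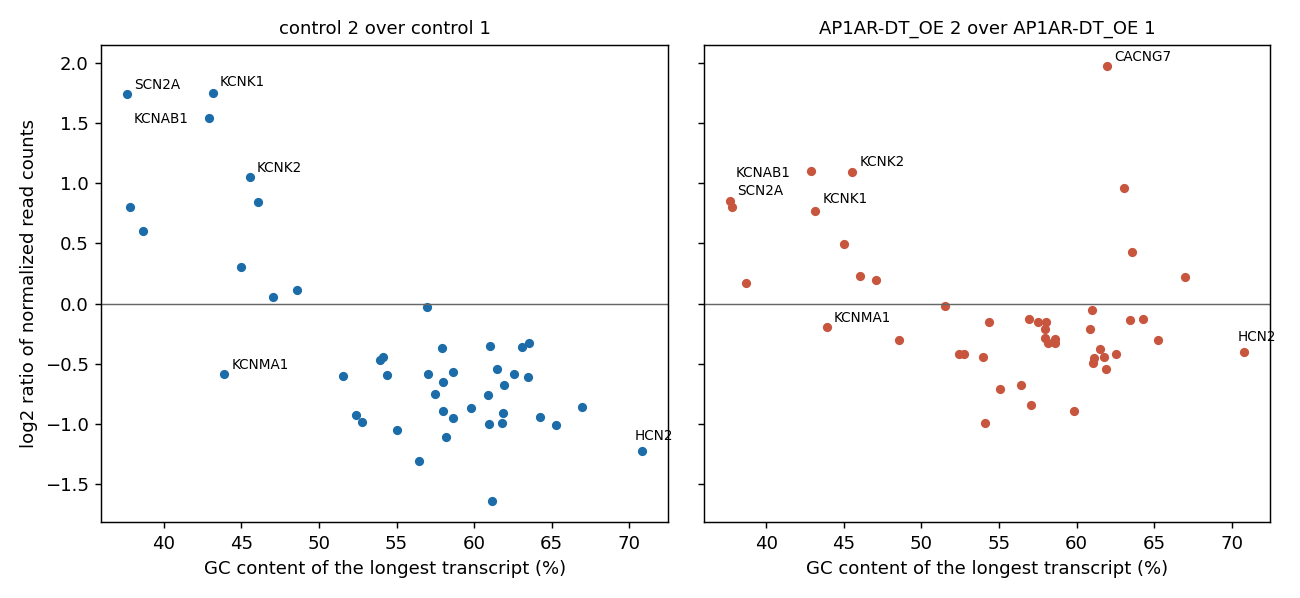
Ratio of the libraries numbered 2 over those numbered 1 against GC content for the 45 detected channel genes. The y axes are the log2 ratio of normalized read counts, in the controls on the left and in AP1AR-DT_OE on the right, and the x axes are the GC content of the longest transcript in percent. In the controls all 34 genes at 50% GC or more lie below 0, whereas CACNG7 and 3 others of them lie above 0 in AP1AR-DT_OE.

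The split was wider in the controls than in AP1AR-DT_OE, and the ratio of the groups differed by number with it. In the libraries numbered 1 the median log2 of AP1AR-DT_OE over control was -0.27 in the upper GC class, and in those numbered 2 it was 0.22. For 30 of the 45 members (66.7%) the ratios in the 2 numbers had opposite signs, where 61.8% of all detected genes did. KCND1 showed this pattern, its log2 ratios being -0.40 for number 1 and 0.38 for number 2, and HCN2 had -0.30 and 0.52. KCNAB3, SCN9A and CACNA1G kept 1 sign, with 0.44 and 0.34 for KCNAB3, -0.29 and -0.71 for SCN9A and -0.46 and -0.60 for CACNA1G. The cause of the split by number was not tested.

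Genes that partner or regulate channels were read from the same fit. Of 54 listed, 51 were in the table and 34 averaged at least 50 normalized read counts, and DESeq2 called 0 of them, with 0 at an unadjusted p under 0.05. The detected ones had a Log2FC between -0.69 and 0.33. UNC80, a subunit of the sodium leak channel, gave the lowest, with 88.8 and 83.3 normalized counts in control and 48.3 and 58.6 in AP1AR-DT_OE. UNC80, STAC and KCTD1 lay below both controls in both AP1AR-DT_OE libraries, and no detected gene of the list lay above, where 4.35% of all detected genes lay below and 5.11% above. NALCN, the pore that UNC80 serves, overlapped between groups with 105.9 and 111 in control against 126 and 74.4. REST, a repressor of many neuronal channel genes, had 175 and 292 in control and 134 and 236 in AP1AR-DT_OE. PEX5L, a cytoplasmic partner of HCN channels, stayed at or under the floor, while HCN2 was among the leading channel transcripts.

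RefSeq promoter windows (GRCh38.p14, 250 bases before to 50 after a transcript start) were matched by symbol for 67 of the 98 members, 109 windows in all. The letters TATAAA of the TATA box, searched on both strands, were in 7 of the 109 windows (6.42%), among them those of KCNH2, KCNAB1, KCNK1 and SCN2A, where 11.5% of all 35116 windows held them. Of the matched members that were detected, 21 of 30 (70.0%) had a window rich in CpG (GC content of at least 50% and observed over expected CpG of at least 0.6) as the one nearest the gene's start, against 21 of 37 (56.8%) of those not detected. Counted over every window, 54.1% of the 109 channel windows and 46.9% of all windows were rich in CpG.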

How the data were processed

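Total RNA of SK-N-SH cells was sequenced in 4 libraries, grouped and numbered by their titles. According to the study's methods, reads were aligned to hg19 with HISAT2 and read counts per gene were taken from StringTie output with its Python script. The processing notes deposited with the data list another pipeline (TopHat2, HTSeq, Cuffdiff and edgeR), and the study's methods were followed here. The annotation is not given in the sources used here. The deposited counts are whole numbers without normalization. The authors' own fold changes and p-values stand beside them in the table and were not used.

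The 24014 genes were fitted together in DESeq2 1.42.0 (R 4.3.3, median-of-ratios size factors, two-sided Wald test, no covariate, Benjamini-Hochberg adjustment over all genes, default independent filtering), and an adjusted p under 0.05 counted as a call. The 98 channel genes, the partner list and the marker lists were chosen with earlier results of these data known. Low values of the table piled up at 4 (3287 entries, against 2136 at 3 and 1509 at 5), hence the floor of 12 counts. GC content, length, exon overlap and coding sequence came from GENCODE v44 mapped to GRCh37. Of 138 symbols of the pattern in the gene name table used here, 40 had no row among the counts and were not analysed here. Ratios of libraries used a pseudocount of 1. Named genes were the 3 with the highest mean in each of the functional groups, any called or with an unadjusted p under 0.05, and the largest rises and falls outside the control range among detected genes. A few channel genes that this rule or the text would name are not reported here, although they stay in every count, median and test. On simulated counts of 22277 genes for AP1AR-DT_OE against control, DESeq2 recovered 8% of genes changed 2-fold and 40% at 4-fold. It recovered 78% at 8-fold and 88% at 16-fold (50 genes each). These were 4, 20, 39 and 44 genes, against 40 false calls, a larger false share than the mark of 0.05 aims at. The simulated libraries were drawn independently, without the split by GC content and replicate number of the real ones.

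Alternatives were edgeR 4.0.16 quasi-likelihood with TMM factors, TMM factors in DESeq2, a filter of 10 counts in 2 libraries, the likelihood-ratio test, fits in both tools that blocked on replicate number, DESeq2 without independent filtering, counts divided by 4, a lowess correction for GC content (span 0.3) with and without the block, other marks for detection, other transcript lengths, and leaving out each library.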

Additional observations from a re-analysis of the deposited data

How the results depend on the processing

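None of the 14 other fits called a channel gene at an adjusted p under 0.05. The count at an unadjusted p under 0.05, 0 as reported, was 1 with GC correction (KCNA3) and between 0 and 1 without each library in turn (KCNJ8 without control replicate 2, CACNG7 without AP1AR-DT_OE replicate 2). Of the 45 detected channel genes, 4 lay outside the control range as reported. The count was 14 with GC correction, 6 with TMM factors and 5 with counts divided by 4. Among all detected genes the shares were 9.45% as reported, then 18.7%, 9.51% and 9.56% in the same order. The channel share lay above that of all detected genes with GC correction. With TMM factors or division by 4 it was also above, but only by a few genes, and as reported it was below. All settings reuse the same libraries, so they are not separate lines of evidence. With a mean of at least 10 or at least 100 as the mark, 65 or 33 genes were detected instead of 45. The first 10 genes per length were the same with coding length, and 9 of them with the median transcript.

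Same-numbered libraries deviated together across 16730 genes (correlation 0.41 over 2 pairs, which the labels do not tie to a batch). With the replicate block the count called was 0, and in edgeR with the block the unadjusted count was 1 (CACNG7, where 2.57% of all genes tested fell under that mark). The block turned the sign of Log2FC for HCN2 (0.11 in DESeq2, 0.10 in edgeR), KCNK1 (0.090 and 0.080), SCN2A (0.14 and 0.12) and, in DESeq2, KCNN1 (0.0033). With GC correction, and with GC correction and block, the values were 0.00093 and 0.015 for HCN2, 0.062 and 0.14 for KCNK1, and 0.19 and 0.22 for SCN2A. HCN2 also turned with edgeR without the block (0.0031) and TMM factors (0.00039).

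Leaving out each library in turn, Log2FC ranged from -0.33 to 0.66 for CACNA1C, -0.80 to 0.22 for CACNB3, -0.26 to 0.68 for CACNG4, -0.48 to 0.74 for HCN2, -2.97 to 3.26 for HCN4, -1.05 to 0.60 for KCNAB1, -0.24 to 0.74 for KCNAB2, -0.55 to 0.55 for KCND1, -0.36 to 0.22 for KCNG1, -0.46 to 0.29 for KCNH2, -0.015 to 0.48 for KCNJ14, -0.73 to 1.05 for KCNK1, -0.74 to 0.56 for KCNK2, -0.091 to 0.65 for KCNK3, -0.38 to 0.19 for KCNMA1, -0.26 to 0.31 for KCNN1, -0.16 to 0.37 for KCNN4, -0.67 to 1.10 for SCN2A and -0.88 to 0.16 for SCN4B. Each of these ranges spans 0, and none of these genes passed the test as reported. KCNAB3 and CACNA1G, among others, kept 1 sign and are not listed. HCN4 stayed under the floor, with at most 4 counts in any library, so its range rests on very few read pairs. In edgeR, 28 channel genes fell under the expression filter and were not tested.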
